A study of Drosophila melanogaster with 6 samples.

Results

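The Turandot genes of Drosophila melanogaster were followed in head RNA of ND and HSD-F1 flies. The family comprised 7 of the 17545 genes in the count tables, namely TotA (Dmel_CG31509), TotB (Dmel_CG5609), TotC (Dmel_CG31508), TotF (Dmel_CG31691), TotM (Dmel_CG14027), TotX (Dmel_CG31193) and TotZ (Dmel_CG31507). Its genes were taken by name, and the family itself was selected on its read counts in ND and HSD-F1 flies in these same libraries. The difference between the groups is therefore given as a description, with the value of every library. No p-value is given for a Turandot gene, and counts of Turandot genes past a threshold are descriptive only.

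Turandot genes encode small secreted peptides that fruit flies release into the hemolymph under stress. They are transcribed mainly in the fat body, the insect counterpart of liver and adipose tissue, and are known for a slow and lasting rise after heat, wounding, bacterial infection, dehydration and oxidative stress. JAK/STAT signaling, which runs from Unpaired ligands through the receptor Domeless and the kinase Hopscotch to the transcription factor Stat92E, is the best described input to TotA, and the kinase Mekk1 and the Imd pathway with its NF-kappaB factor Relish act on it as well. Turandot proteins have been described to bind phosphatidylserine on host membranes and to protect tracheal cells from the fly's own antimicrobial peptides.

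The study asked how ancestral exposure to a high-sugar diet affected offspring, and the RNA-seq compared heads of 5-day-old female flies in 2 groups. By the labels, ND flies descended from ancestors kept on a diet with 10% sucrose from egg to adult. HSD-F1 flies descended from ancestors kept on 20% sucrose and were themselves raised on the normal diet. Each group had 3 replicates, and each replicate pooled several heads. The labels of all 6 libraries gave the genotype W+VDRC, whereas the study's own description named Canton-S as its wild type, and the strain was not settled here. A head library mixes eye, brain, fat body, blood cells and cuticle. A difference in the number of fat body cells and a difference in RNA per cell therefore cannot be told apart.

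Between 20266352 and 26190694 reads were counted on genes in a library, and the lowest total belonged to HSD-F1 replicate 1. Of 12048 genes whose counts summed to 10 or more over all libraries, edgeR's quasi-likelihood test called 137 higher in HSD-F1 at an unadjusted p under 0.05 and a 1.5-fold change, which was 1.14% of the genes tested, and 81 lower, which was 0.672%. With the Benjamini-Hochberg adjusted p under 0.05, 8 genes were higher, which was 0.0664%. The median log2 fold change over all genes tested was -0.00. The labelled tissue was checked against 8 eye and neuron genes, led by the opsin gene ninaE, whose summed CPM ranged from 34193 to 35367 in ND and from 31479 to 40398 in HSD-F1. CPM denotes the count of a gene scaled to the total of its library, after TMM adjustment of that total. Of 7 male genes, Acp26Aa, SP and ProtB had 0 counts in every library, ProtA and dj had at most 1, lncRNA:roX2 had 7 to 29, and lncRNA:roX1 had 265 to 372.

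The family lay in 4 places of the genome, with genes within 20 kb of each other taken as 1 cluster, all given on Release 6 (dm6) of the assembly. TotA (3R, 20871036 to 20871700), TotC (3R, 20872988 to 20873580), TotB (3R, 20873938 to 20874522) and TotZ (3R, 20877736 to 20878363) stood in this order on the plus strand of chromosome arm 3R, each with 2 exons and 1 short intron. The gaps between them were 1287 bases from TotA to TotC, 357 bases from TotC to TotB and 3213 bases from TotB to TotZ. TotX (3R, 20904917 to 20905518) lay 26553 bases beyond TotZ, on the minus strand and in a single exon. TotM (2L, 5329857 to 5330464, plus strand) and TotF (2L, 19911815 to 19912377, minus strand) stood on chromosome arm 2L, separated by 14581350 bases.

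The annotated proteins were short, from 125 codons in TotF to 147 codons in TotZ. TotA and TotC both had 129 codons, TotM had 131, TotB had 138 and TotX had 142. A pair of members lay inside another gene on the opposite strand, TotX within Grik, which encodes a kainate-type glutamate receptor subunit, and TotF within sick. Neither shared an exonic base with its host, and whether reads were counted by strand is not given in the sources used here. By the study's description only uniquely mapped reads were kept, so reads that fit more than 1 member equally well may have been dropped. How the counting step treated such reads is not given. The effect of this on the close neighbors TotA, TotB and TotC, whose counts it could lower, was not tested.

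**Figure D1:**
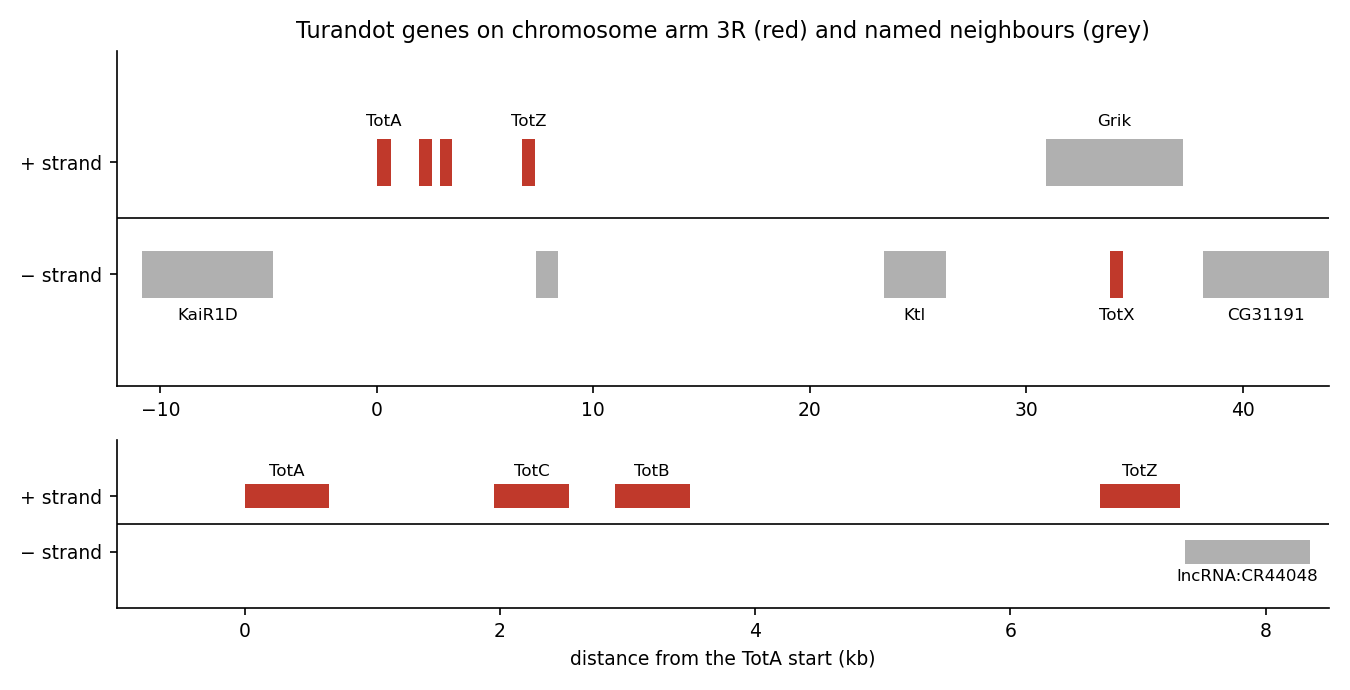
Turandot genes (red) and the named neighboring genes (grey) on chromosome arm 3R, drawn to scale as boxes from gene start to gene end against the distance in kb from the start of TotA, with genes of the plus strand above the line and genes of the minus strand below it. The upper panel holds the whole region with TotX inside Grik (CG31191 runs on past the right edge), and the lower panel enlarges TotA, TotC, TotB and TotZ, of which TotC and TotB are separated by 357 bases.

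Turandot transcripts were abundant in the heads of both groups and stood higher in HSD-F1 flies. The 7 genes summed to 833, 1087 and 517 CPM in ND replicates 1, 2 and 3, and to 1451, 1487 and 1213 CPM in HSD-F1 replicates 1, 2 and 3. All HSD-F1 libraries lay above all ND libraries, and the lowest of them was 1.12 times the highest ND library. The mean was 813 ± 286 CPM (SD, n = 3) in ND and 1384 ± 149 CPM (SD, n = 3) in HSD-F1, a ratio of 1.70. The ND libraries were the more dispersed, with replicate 3 at the bottom and replicate 2 at the top. Without ND replicate 3 the log2 ratio of the sums moved from 0.77 to 0.53, and without ND replicate 2 it moved to 1.04.

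**Figure D2:**
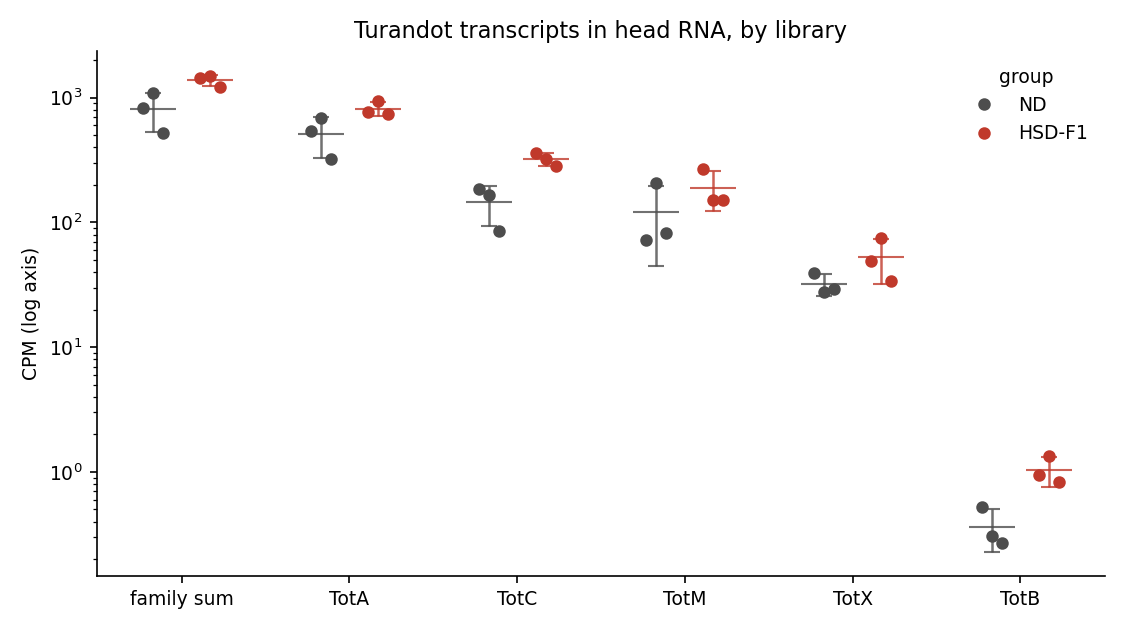
Level in CPM on a log axis of the summed family and of the 5 Turandot genes with at least 10 counts, with 1 point per library, a horizontal bar at the group mean and whiskers of 1 SD (ND grey, HSD-F1 red, 3 libraries each). The groups do not overlap for the family sum, TotA, TotC and TotB, whereas they overlap for TotM and TotX.

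TotA, the founding member and the most intensely studied one, was the most abundant Turandot transcript in every library. It reached 538, 686 and 320 CPM in the ND replicates and 776, 935 and 743 CPM in the HSD-F1 replicates. The 3 HSD-F1 libraries all stood above the 3 ND libraries. Its mean rose from 514 ± 184 CPM (SD, n = 3) to 818 ± 103 CPM (SD, n = 3), a ratio of 1.59, and the fitted log2 fold change was 0.67 ± 0.25 (SE). The value depended on single libraries, falling to 0.42 when ND replicate 3 was left out and reaching 0.93 when ND replicate 2 was left out.

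TotC, which lies next to TotA and encodes a peptide of the same length, showed the larger difference of the pair. It reached 184, 165 and 85.9 CPM in the ND replicates and 359, 324 and 283 CPM in the HSD-F1 replicates. The groups were well apart, and ND replicate 3 was again the lowest library. Its mean was 145 ± 52.0 CPM (SD, n = 3) in ND and 322 ± 38.2 CPM (SD, n = 3) in HSD-F1, a ratio of 2.22 and a log2 fold change of 1.15 ± 0.25 (SE). Leaving out each library in turn gave log2 fold changes of 0.88 to 1.36.

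TotB, the third gene of the cluster, was expressed far below its neighbors. It had 13, 8 and 7 counts in ND and 19, 35 and 21 counts in HSD-F1, which corresponded to 0.520, 0.304 and 0.270 CPM and to 0.937, 1.34 and 0.825 CPM. The groups did not overlap although every value was small. The ratio of means was 2.84 and the log2 fold change 1.5 ± 0.37 (SE), the largest fitted value among the Turandot genes tested. At these counts the sampling error of a single library is large, and reads of the far more abundant TotA and TotC could weigh on TotB if any were assigned to it, which was not tested.

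TotM, the member on chromosome arm 2L that has been linked to survival after sexually transmitted fungal infection, did not separate the groups. It reached 71.9, 209 and 81.8 CPM in the ND replicates and 267, 152 and 153 CPM in the HSD-F1 replicates. ND replicate 2 exceeded 2 of the 3 HSD-F1 libraries. The means were 121 ± 76.5 CPM (SD, n = 3) and 191 ± 66.0 CPM (SD, n = 3), and the log2 fold change of 0.66 ± 0.40 (SE) ranged from 0.33 without HSD-F1 replicate 1 to 1.31 without ND replicate 2.

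TotX, the single-exon member inside Grik, also overlapped between the groups. It reached 39.4, 27.5 and 29.0 CPM in the ND replicates and 49.0, 74.7 and 34.0 CPM in the HSD-F1 replicates. HSD-F1 replicate 3 fell below ND replicate 1, and HSD-F1 replicate 2 stood apart at the top. The means were 32.0 ± 6.45 CPM (SD, n = 3) and 52.6 ± 20.6 CPM (SD, n = 3), and the log2 fold change of 0.72 ± 0.27 (SE) was 0.37 without HSD-F1 replicate 2. The host gene Grik had a log2 fold change of 0.04, from 23.2 CPM in ND to 23.7 CPM.

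TotF and TotZ were not detectable at this depth as expressed genes. TotF had 1 count in ND replicate 1 and 0 counts in the other 5 libraries. TotZ had 2 counts in HSD-F1 replicate 2 and 0 counts elsewhere. A count of 0 allows up to 3 counts, which corresponded to 0.114 to 0.148 CPM depending on the library, and this limit covers counting error only. No fold change is given for either gene. TotE (Dmel_CG33117), a further Turandot gene 561 bases from TotF that was not among the 7, had 0 counts over the 6 libraries.

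Of the 7 genes, 5 passed the minimum of 10 counts, and all 5 had a log2 fold change above 0, with a median of 0.72. Because the family was selected on this contrast, its genes were favored to pass a threshold on it, and nothing is read from the following counts. At the unadjusted threshold 4 of the 5 lay past it (TotA, TotC, TotB and TotX), where 1.14% of all genes tested did, and 3 of the 5 had groups that did not overlap, as 6.67% of all genes tested did. The count rested on single libraries. Without ND replicate 3, or without HSD-F1 replicate 2, TotB and TotC were the 2 genes past the unadjusted threshold, and without ND replicate 2, TotM took the place of TotX.

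Relative to exon length, TotA stood among the most highly expressed genes of the head. Its level was 888 ± 318 RPKM (SD, n = 3) in ND and 1413 ± 177 RPKM (SD, n = 3) in HSD-F1, where RPKM denotes CPM per kilobase of merged exons. It ranked 50 to 138 among the 17545 genes in ND libraries and 31 to 70 in HSD-F1 libraries. TotC reached 273 ± 98.1 RPKM (SD, n = 3) and 607 ± 72.0 RPKM (SD, n = 3), and its rank moved from 238 to 444 in ND to 118 to 177 in HSD-F1.

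TotM followed with 219 ± 139 RPKM (SD, n = 3) in ND and 345 ± 120 RPKM (SD, n = 3) in HSD-F1. TotC exceeded TotM in 5 of the 6 libraries, but the difference between their ND means was smaller than the spread of either gene. TotX was lower again, at 53.1 ± 10.7 RPKM (SD, n = 3) and 87.4 ± 34.2 RPKM (SD, n = 3). TotB reached 0.694 and 1.97 RPKM, so that neighbors 357 bases apart on the same strand differed by more than 2 orders of magnitude in level. TotX stood below TotM and above TotB in every library.

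The family sum was dominated by TotA. It made up 64.5%, 63.1% and 61.9% of the summed CPM in ND and 53.4%, 62.8% and 61.3% in HSD-F1. HSD-F1 replicate 1 was the low library, and the other 5 lay close together. TotC made up 22.1%, 15.2% and 16.6% in ND and 24.7%, 21.8% and 23.3% in HSD-F1. Its share was 17.9 ± 3.65% (SD, n = 3) in ND and 23.3 ± 1.47% (SD, n = 3) in HSD-F1, and the groups overlapped by the narrow margin between ND replicate 1 and HSD-F1 replicate 2.

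The TotM share was the least even. It was 8.62%, 19.2% and 15.8% in ND and 18.4%, 10.2% and 12.6% in HSD-F1, so that high and low values occurred in both groups. TotX held between 2.53% and 5.62% in ND and between 2.80% and 5.02% in HSD-F1. TotB never reached 0.1%, with 0.0903% as its highest share. The widest 95% Wilson interval of any of these shares spanned 1.64 percentage points, which covers counting error only and was well below the spread between replicates for TotM.

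**Figure D3:**
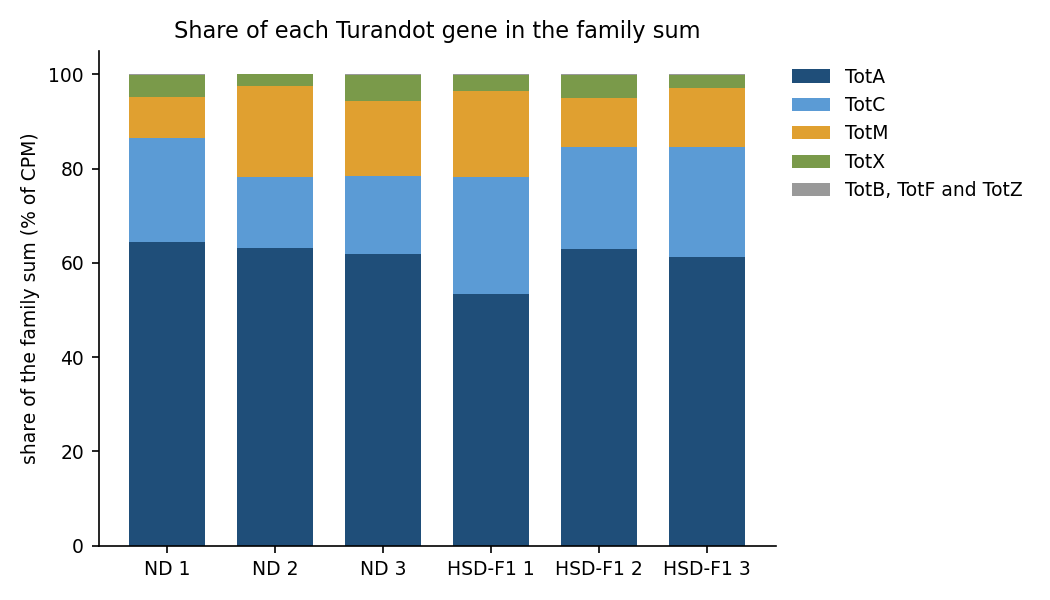
Stacked bars of the share of each Turandot gene in the family sum of CPM, in percent, with 1 bar per library. TotA fills 53.4% to 64.5% of every bar, the TotM share runs from 8.62% to 19.2% without separating the groups, and TotB, TotF and TotZ together are too small to see.

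The genes did not keep a fixed ratio. TotC stood at 34.2%, 24.0% and 26.8% of the TotA level in ND and at 46.3%, 34.7% and 38% in HSD-F1. All HSD-F1 libraries were above all ND libraries, although HSD-F1 replicate 2 exceeded ND replicate 1 only slightly. The mean ratio was 28.4 ± 5.26% (SD, n = 3) in ND and 39.6 ± 5.97% (SD, n = 3) in HSD-F1.

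TotB moved the same way relative to TotA, at 0.0968%, 0.0443% and 0.0844% in ND and 0.121%, 0.144% and 0.111% in HSD-F1. The groups did not overlap. TotM stood at 13.4%, 30.5% and 25.6% of TotA in ND and at 34.4%, 16.3% and 20.5% in HSD-F1, with full overlap and nearly equal means of 23.1% and 23.7%. TotX relative to TotA averaged 6.80 ± 2.57% (SD, n = 3) and 6.30 ± 1.71% (SD, n = 3), and its groups overlapped as well.

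**Figure D4:**
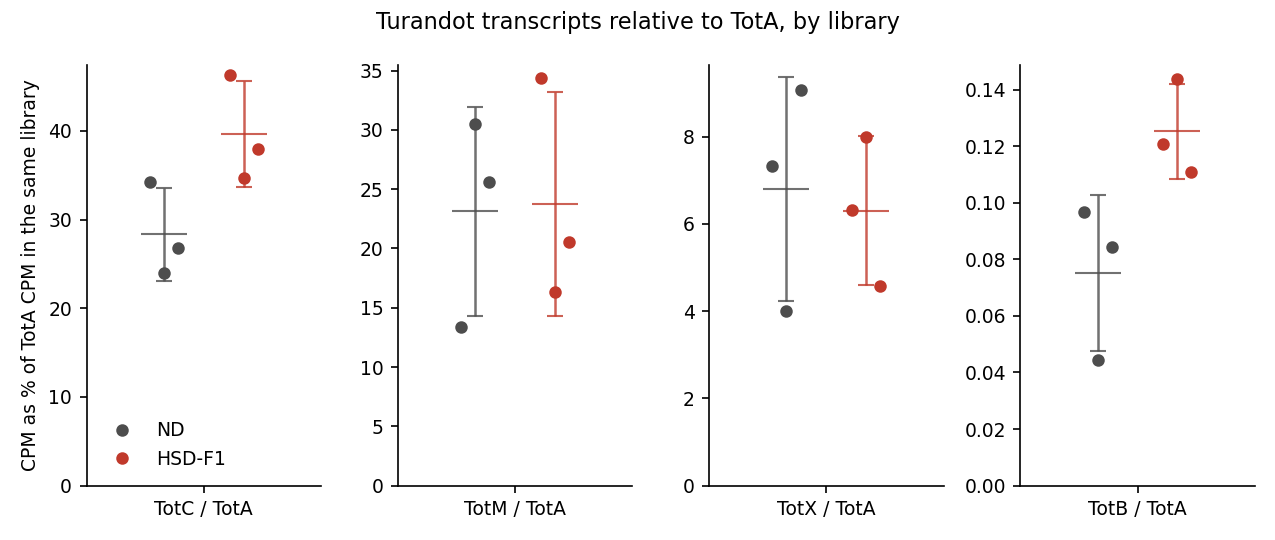
Level of TotC, TotM, TotX and TotB as a percentage of the TotA level in the same library, with 1 point per library, a bar at the group mean and whiskers of 1 SD (ND grey, HSD-F1 red, 3 libraries each, each panel with its own axis from 0). TotC and TotB relative to TotA are higher in all HSD-F1 libraries, while TotM and TotX overlap. The TotB values rest on 7 to 35 counts per library.

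The genes also differed in which libraries of a group were high. After the group means of log2 CPM were removed, TotA and TotC deviated together over the 6 libraries (Pearson r = 0.85), as did TotB and TotX (r = 0.88). TotB and TotC had r = 0.60. For TotM the values were 0.51 with TotA, -0.39 with TotB and -0.29 with TotX. No relation is read from values of this size over 6 libraries, and none was tested. The values of TotB rest on 7 to 35 counts per library. These values describe 6 libraries whose genes share the same total count and scaling. Within ND, the highest library of TotA and TotM was replicate 2, whereas the highest library of TotC, TotB and TotX was replicate 1.

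In ND the spread between replicates was wide beside that of most tested genes, a comparison that was not limited to genes of like abundance. The coefficient of variation in ND was 35.7% for TotA, 35.9% for TotC and 63.3% for TotM, while the median over the 6929 tested genes with a mean of at least 10 CPM was 6.19%. In HSD-F1 it was 12.5% for TotA and 11.9% for TotC, close to the median of 11.0%, but 34.6% for TotM. TotX was the reverse of TotA and TotC, with 20.2% in ND and 39.1% in HSD-F1.

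Genes of pathways known to act upstream of Turandot transcription were examined next. The list held 39 genes of JAK/STAT, p38, JNK and Imd signaling, called upstream genes here. It also held targets and feedback genes of these pathways, such as Socs36E and PGRP-SC2. Of the 39 genes, 38 passed the count minimum, 20 had a log2 fold change above 0, and the median was 0.02. At an unadjusted p under 0.05 without a fold threshold, edgeR's quasi-likelihood test picked 4 of the 38 (upd2, et, PGRP-LB and PGRP-SC2), against 5.07% of all genes tested. With the 1.5-fold threshold 2 of the 38 were called, PGRP-SC2 higher, against 1.14% of all genes tested, and upd2 lower, against 0.672%. With the Benjamini-Hochberg adjusted p, edgeR and limma-voom called 0 and DESeq2 called 1, PGRP-SC2. Without ND replicate 3, 4 genes were called at the unadjusted threshold (upd2, p38c, PGRP-LB and PGRP-SC2), and PGRP-SC2 also passed the adjusted one.

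Among the ligands, upd2, which encodes a leptin-like cytokine of the fat body, had 10, 7 and 13 counts in ND and 0, 1 and 3 counts in HSD-F1. All HSD-F1 libraries were below all ND libraries, although the HSD-F1 counts were at the limit of detection and no fold change is given. Its adjusted p was 0.911 (edgeR's quasi-likelihood test, Benjamini-Hochberg). The ligand gene upd3 was at 0.321 CPM in ND heads and 0.326 CPM in HSD-F1 heads, and upd1 had at most 3 counts in a library.

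The receptor gene dome stood at 37.1 ± 0.533 CPM (SD, n = 3) in ND and 39.2 ± 4.61 CPM (SD, n = 3) in HSD-F1. The short receptor et, known to dampen signaling through Domeless, reached 11.4, 11.6 and 11.9 CPM in the ND replicates and 13.9, 13.5 and 13.4 CPM in the HSD-F1 replicates. Its groups did not overlap, but the log2 fold change was only 0.23 ± 0.09 (SE), with an adjusted p of 0.911 (edgeR's quasi-likelihood test, Benjamini-Hochberg).

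The transcription factor gene Stat92E was at 431, 421 and 460 CPM in the ND replicates and at 401, 402 and 327 CPM in the HSD-F1 replicates. All HSD-F1 libraries were below all ND libraries, the opposite order to TotA and TotC, with a log2 fold change of -0.22 ± 0.11 (SE) that did not pass the unadjusted threshold. The feedback inhibitor Socs36E, a direct JAK/STAT target, was at 34.0 CPM in ND heads and 35.6 CPM in HSD-F1 heads, and Ptp61F, the most abundant of the 4 inhibitors, at 72.7 and 71.9 CPM. None of the 4 inhibitors was called at the unadjusted threshold by edgeR, DESeq2 or limma-voom.

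In the kinase cascades 0 of 6 p38 genes and 0 of 11 JNK genes had an unadjusted p under 0.05 in edgeR's quasi-likelihood test, and DESeq2 and limma-voom called none of them at 1.5-fold. Mekk1, the stress kinase that acts on TotA, was at 55.0 ± 5.48 CPM (SD, n = 3) in ND and 51.8 ± 4.71 CPM (SD, n = 3) in HSD-F1. The AP-1 subunit gene kay was at 172 ± 6.45 CPM (SD, n = 3) and 181 ± 21.6 CPM (SD, n = 3). The difference in Mekk1 was smaller than the SD of either group, and that in kay was smaller than the SD of HSD-F1 but not of ND.

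The Imd list held 11 genes, of which 8 had a log2 fold change above 0. The Relish gene Rel reached 127, 165 and 204 CPM in the ND replicates and 224, 220 and 192 CPM in the HSD-F1 replicates, with overlapping groups and a log2 fold change of 0.35 ± 0.16 (SE). PGRP-SC2, an amidase that degrades peptidoglycan and is itself an Imd target, had 63, 61 and 218 counts in ND and 2404, 730 and 1868 counts in HSD-F1. All HSD-F1 libraries stood above all ND libraries, with a log2 fold change of 4.05 ± 0.64 (SE) and an adjusted p of 0.233 (edgeR's quasi-likelihood test, Benjamini-Hochberg). PGRP-LB, another amidase of this pathway, had a log2 fold change of 0.48 ± 0.19 (SE) and an adjusted p of 0.911 in the same fit.

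**Figure D5:**
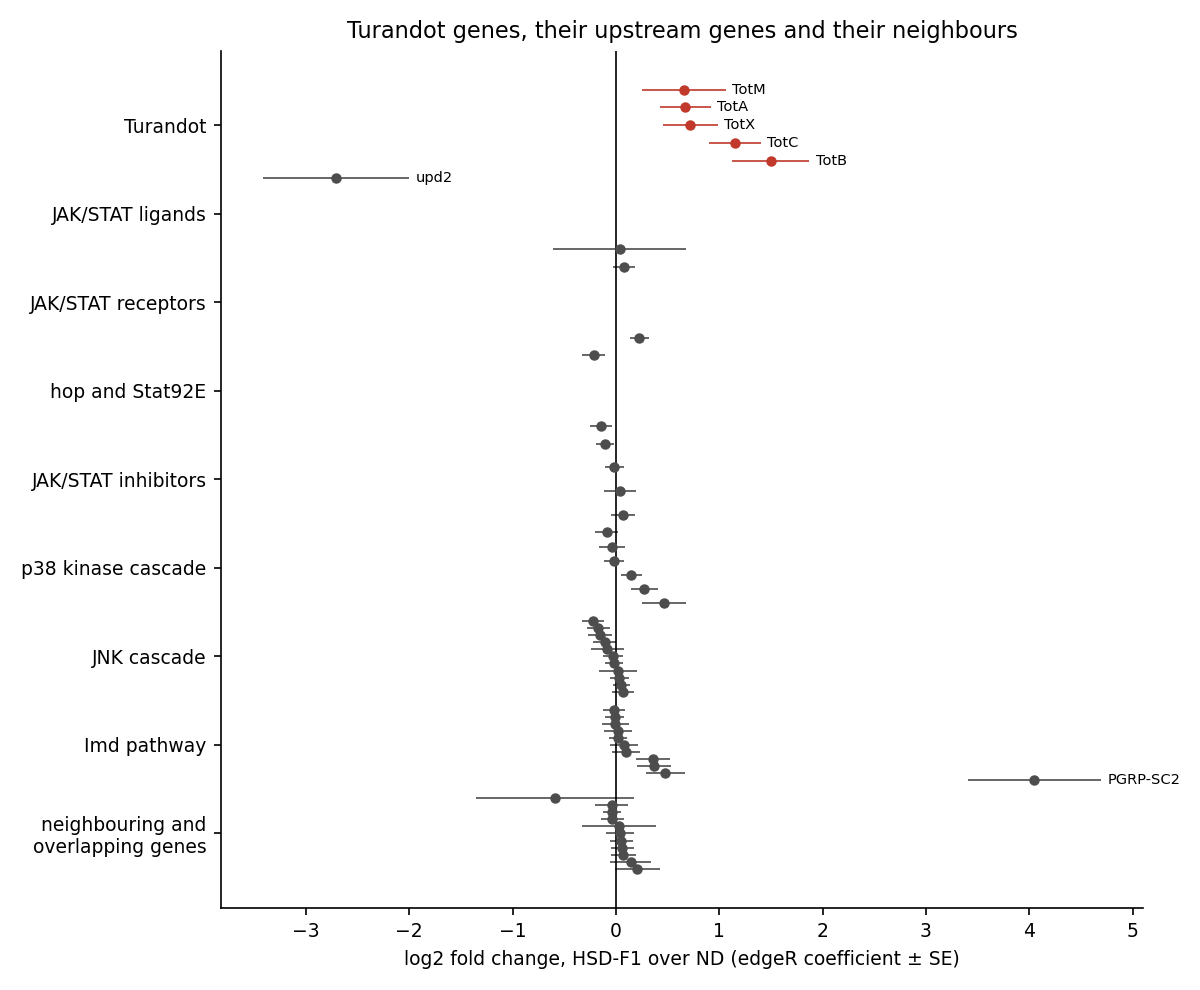
Log2 fold change of HSD-F1 over ND (edgeR coefficient, whiskers of 1 SE, 3 libraries per group) for the 5 Turandot genes tested (red), the 38 upstream genes tested by role, and the neighboring and overlapping genes tested. The Turandot genes lie between 0.66 and 1.5 and most other genes near 0. The value drawn for upd2 rests on HSD-F1 counts at the limit of detection and is read for its direction only, and PGRP-SC2 at 4.05 is the farthest from 0.

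The tested genes beside the Turandot genes differed little between the groups. The 2 nearest genes on each side of each cluster gave 16 neighbors, with TotE among them, of which 9 passed the count minimum. Around the cluster of TotA, TotC, TotB and TotZ, the neighbors that could be tested all lay on the TotA side. None of the 9 had an unadjusted p under 0.05 in edgeR's quasi-likelihood test, DESeq2 and limma-voom called none of them at 1.5-fold, and their median log2 fold change was 0.05. KaiR1D, which ends 4805 bases from TotA, was at 57.6 CPM in ND heads and 59.7 CPM in HSD-F1 heads. The gene fusl, 6 bases from TotM, was at 75.0 and 73.3 CPM, and CG14022 on the other side of TotM at 28.3 and 32.6 CPM. Beside TotX, Ktl had a log2 fold change of -0.04 and CG31191 one of 0.07. The nearest neighbors lncRNA:CR44048 of TotZ and lncRNA:CR43097 of TotF were too low to test. The host gene sick of TotF had a log2 fold change of -0.04.

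Transcripts of tissues known for Turandot expression, or that a head sample can carry along, were set beside the family. The 9 head fat body genes, led by the yolk protein genes Yp1, Yp2 and Yp3, summed to 80844, 65505 and 74875 CPM in the ND replicates and to 82804, 65828 and 64467 CPM in the HSD-F1 replicates. Their order did not follow the Turandot order. Of the 9 genes 0 had a log2 fold change above 0, with a median of -0.16, and 1, to, was called lower in HSD-F1, against 0.672% of all genes tested. The 8 blood cell genes summed to 539 to 581 CPM in ND and to 487 to 627 CPM in HSD-F1, so that the ND range lay inside the HSD-F1 range.

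Egg and ovary transcripts were highest in replicate 3 of each group. The 13 ovary and egg genes summed to 5.04, 4.98 and 59.0 CPM in the ND replicates and to 4.93, 4.64 and 14.7 CPM in the HSD-F1 replicates. Most of the sum in ND replicate 3 came from Cp36 (25.7 CPM) and Cp38 (21.1 CPM). ND replicate 3, the library with the lowest Turandot sum, was by far the highest here, and HSD-F1 replicate 3, the lowest HSD-F1 library of the Turandot sum, was second. Without ND replicate 3, TotC had a log2 fold change of 0.88, TotB of 1.33 and TotA of 0.42. With replicates 1 and 2 of each group only, which leaves out both libraries, TotC had a log2 fold change of 0.97, TotB of 1.48, TotX of 0.89 and TotA of 0.48, and the log2 ratio of the family sums was 0.61. The 6 gut genes summed to 13.0, 4.71 and 3.82 CPM in the ND replicates. In the HSD-F1 replicates their sums were 11.7, 3.61 and 3.58 CPM, so that replicate 1 was the highest in each group. The 3 Malpighian tubule genes summed to at most 29.6 CPM in a library, nearly all of it from Irk3 (28.7 CPM in that library, HSD-F1 replicate 3).

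The antimicrobial peptide genes, whose products fat body cells release after infection, also summed to more in HSD-F1, but in another order of libraries than the Turandot genes. Their 14 transcripts summed to 635, 1115 and 3764 CPM in the ND replicates and to 6860, 5606 and 9170 CPM in the HSD-F1 replicates. All HSD-F1 libraries were above all ND libraries. Of the 14 genes, 9 were called higher at the unadjusted threshold, against 1.14% of all genes tested, and their median log2 fold change was 1.75. The adjusted threshold was passed by 1 of them, Mtk, against 0.0664% of all genes tested. Within ND the peptide sum was highest in replicate 3, where the Turandot sum was lowest, and within HSD-F1 it was highest in replicate 3 as well, again the library with the lowest Turandot sum.

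The 5 genes whose log2 CPM followed the Turandot sum most closely over the 6 libraries, out of 6925 genes with a mean of at least 10 CPM, were CG3104, qkr58E-1, ben, Nnp-1 and PXo, with Pearson r from 0.96 to 0.98. Such values are the extremes of many genes over 6 libraries and are given as a description only. Their own differences were small, as for CG3104, which was at 42.9 CPM in ND heads and 45.3 CPM in HSD-F1 heads, and ben, a ubiquitin-conjugating enzyme gene, at 191 and 212 CPM. None of the antimicrobial peptide or upstream genes was among these 5.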

How the data were processed

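The authors purified polyadenylated RNA from fly heads, sequenced it in pairs on a BGISEQ platform, kept uniquely mapped reads and deposited 1 table of whole-number counts per gene for each of the 6 libraries, without normalization. The submitters' processing notes name HISAT2 2.0.4, Bowtie2 2.2.5, RSEM 1.2.12 and DESeq2 1.4.5 without their roles, and the counting program and the use of strand are not given in the sources used here. The study describes FPKM, whereas the deposited values were counts.

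The quasi-likelihood functions glmQLFit and glmQLFTest of edgeR 4.0.16 (R 4.3.3) were run on TMM-scaled counts of 12048 genes whose counts summed to 10 or more, with group as the only term. DESeq2 1.42.0 and limma 3.58.1 were alternatives, with other filters and scalings, a replicate block, replicates 1 and 2 only, and leaving out each library. The model fits were tested on simulated data. CPM used the scaled library totals, log2 CPM a prior count of 2, and Wilson intervals a 95% level. Summaries used SciPy 1.17.1, numpy 2.4.6 and pandas 2.3.3 under Python 3.11.15.

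Symbols and neighbors came from RefSeq's Release 6 gene table, which held 17504 of the 17545 genes. Exon numbers and codons came from the Ensembl annotation of the same assembly, where the 7 spans were identical. Named were the 7 Turandot genes, upstream genes with an unadjusted p under 0.05 or the highest level of their role, the nearest neighbors, the 5 genes most like the family sum, and abundant genes of the marker lists. Socs36E, upd1, p38c, TotE, Grik, sick, to, Mtk and the male genes were named outside this rule, after their values were seen. The members and lists were chosen with earlier results of these data known. The p-values set the difference between the groups against the spread between libraries within a group, with 3 libraries in each.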

Additional observations from a re-analysis of the deposited data

How the results depend on the processing

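Over 208 recomputed values, 187 kept their direction and stayed within the stated limits, 21 moved and 0 reversed, and all 64 alternative log2 fold changes of Turandot genes were above 0. Leaving out each library in turn, the count of Turandot genes called at the unadjusted threshold ranged from 2 to 4. At the adjusted threshold the count of Turandot genes was 0 with edgeR and limma-voom and 1, TotC, with DESeq2 and with a replicate block. The family was selected on this contrast and the alternatives reuse the same libraries. Nothing is read from these counts or from the shared sign of the Turandot fold changes. Upstream genes called at the unadjusted threshold fell from 2 to 1 with at least 10 counts in every library, where upd2 was no longer tested, rose to 4 with replicates 1 and 2 only, and ranged from 2 to 4 when each library was left out. At the adjusted threshold 1 upstream gene, PGRP-SC2, passed with a minimum of 1 count, with the replicate block and with DESeq2, and 0 to 1 passed when each library was left out. The cause was not tested. Over all genes, 218 calls at the unadjusted threshold became 119 with at least 10 counts in every library, where fewer genes were tested, and 140 with DESeq2. The 8 calls at the adjusted threshold became 38 with the replicate block, 28 with DESeq2, 5 with limma-voom, 18 with replicates 1 and 2 only, and 4 to 21 when each library was left out. Same-numbered libraries deviated together with r of 0.25, 0.01 and 0.28, each best with its own number except replicates 2. The labels name no shared litter, batch or day, so the numbers were not taken as pairs. Depth limited TotF, TotZ, TotB and upd2.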
